A study of Homo sapiens with 4 samples.

Results

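The subunits of the respiratory chain and the ATP synthase were followed after 3 h of dexamethasone in A549, an established cell line from a human lung adenocarcinoma. Genes were taken by symbol: those starting with NDUF, UQCR, ATP5, MT-ND, MT-CO, MT-CYB or MT-ATP, the COX genes numbered 4 to 8, and SDHA to SDHD, without names that end in P and a number. By this rule COX6A1P2 and ATP5EP2 were left out, while MT-ATP6 and MT-ATP8, which also end in P and a number but which the rule lists, were kept. This gave 114 gene identifiers with 110 symbols out of 34608 genes listed, 101 of them nuclear and 13 encoded by mitochondrial DNA, and 112 without MT-ATP6 and MT-ATP8. Among the nuclear members, 85 encode subunits, 8 encode assembly factors of complex I, 4 are paralogs or factors beside the complexes, and 4 are antisense or readthrough genes.

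The dex group held 2 libraries from cells given 100 nM dexamethasone, a synthetic agonist of the glucocorticoid receptor, and the etoh group 2 libraries from cells given 0.02% ethanol, the vehicle, for 3 h each. RNA was sequenced and reads were counted per transcript. Whether replicate libraries were grown as separate cultures is not stated in the labels, and p-values here therefore reflect no more than the variation among these 4 libraries. In bulk RNA, fewer cells and less RNA per cell cannot be told apart.

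The respiratory chain passes electrons from NADH through complex I, or from succinate through complex II, to ubiquinone, then through complex III and cytochrome c to complex IV, which reduces oxygen. Complexes I, III and IV pump protons out of the matrix, and complex V, the ATP synthase, uses the gradient to make ATP. Every complex except complex II joins nuclear subunits, imported as proteins, to subunits made inside the organelle from mitochondrial DNA. In many tissues glucocorticoids are known to affect mitochondrial metabolism.

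Aligned reads numbered 9828448 and 11138944 for the dex libraries, against 9764159 and 11887526 for the etoh libraries. The counts are given below in reads per 1000000 aligned reads (RPM), and fold changes are log2 ratios of dex over etoh from the quasi-likelihood test of edgeR, whose p-values were Benjamini-Hochberg adjusted over the 14777 genes tested. A gene with an adjusted p under 0.05 is said to have risen or fallen. FKBP5, TSC22D3 and PER1, which glucocorticoids are known to induce, rose by 3.38 ± 0.11, 4.46 ± 0.13 and 3.87 ± 0.15 on the log2 scale (SE). The epithelial keratin KRT8 had 3805 and 3167 RPM in dex and 1660 and 1795 RPM in etoh, its partner KRT18 had 3482 and 3061 RPM in dex and 1854 and 2300.1 RPM in etoh, and NKX2-1, a lung lineage factor, had 0 or 1 read in each library. All 8 epithelial markers summed to 9968 and 9014 RPM in dex and 6673 and 7102 RPM in etoh, but AKR1B10 went the other way, with 2009.8 and 2105 RPM in dex and 2409 and 2232 RPM in etoh, as did AKR1C1, with 611 and 622 RPM in dex and 695 and 716 RPM in etoh. EPCAM was low, with 82 and 95 reads in dex and 83 and 134 in etoh. Markers of leukocytes, fibroblasts, endothelium and red cells summed to at most 21.9 RPM in dex and 16.0 RPM in etoh, with CD3E, VWF, HBA1 and HBB at 0 reads. Their part in the results below was not tested.

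The 13 mitochondrial genes took 5.13% and 4.53% of aligned reads in dex, against 4.39% and 5.15% in etoh. Neither group was the higher one, since etoh held both the lowest and the highest library. The 101 nuclear genes took 0.686% and 0.655% in dex and 0.647% and 0.662% in etoh. The ratio of mitochondrial to nuclear reads was 7.48 and 6.92 in dex and 6.78 and 7.78 in etoh, so the groups overlapped in both sums and in their ratio. An exact permutation test of 2 against 2 libraries cannot go below a two-sided p of 0.333, so these sums carry no test.

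Levels per length (RPM per kilobase of transcript, as the mean of both group means) put the organelle's own genes far above their nuclear partners. The median was 3261 for the 13 mitochondrial genes and 45.1 for the 85 nuclear subunit identifiers. MT-CO1, the catalytic core of complex IV, was highest at 11304 ± 663 in dex and 11141 ± 1908 in etoh (SD, n = 2 each). ATP5B, the catalytic beta subunit of the ATP synthase, led the nuclear genes at 991. This was above the mitochondrial MT-ND6 at 704 and MT-ND5 at 960 in dex and 881 in etoh. It was below every complex's mitochondrial maximum. In the other complexes the highest nuclear subunits per length were NDUFA12 in complex I at 320.2, COX6B1 in complex IV at 245, the Rieske iron-sulfur protein UQCRFS1 in complex III at 179, and SDHC in complex II at 93.5. Reads of ATP5G3 were spread about equally over its 3 transcripts and most reads of NDUFA12 over 4 of its 6, so short transcripts raise these levels, which are uncertain for genes with several of them.

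**Figure D1:**
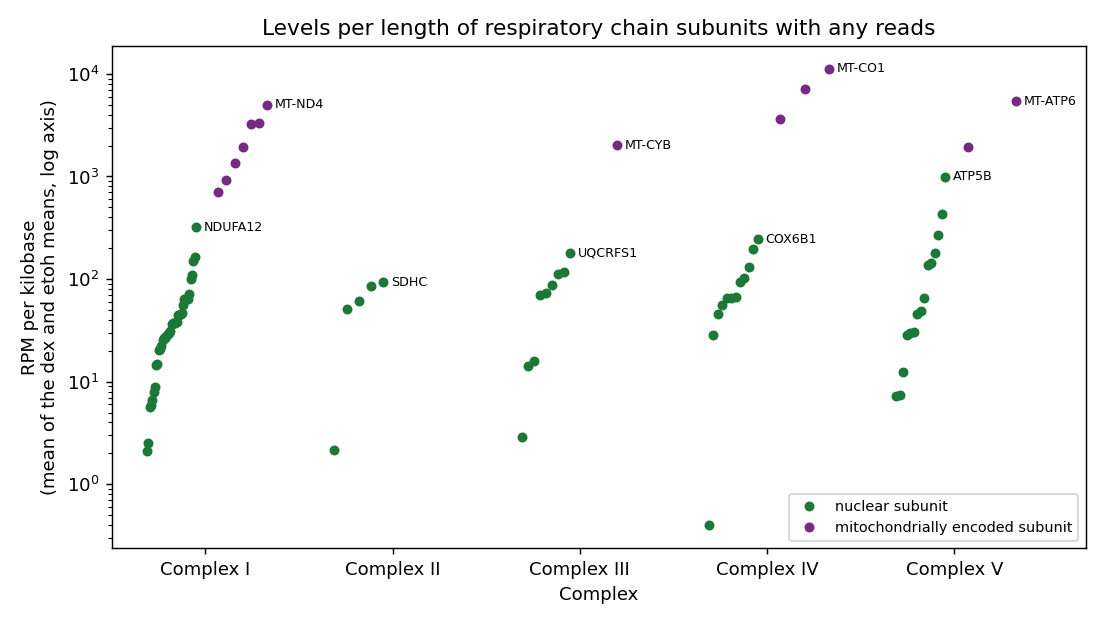
Levels per length of each subunit with any reads, by complex, on a log axis in RPM per kilobase (mean of the dex and etoh means). Green points are nuclear genes, purple points are mitochondrially encoded ones, and the highest of each is named, from MT-CO1 at 11223 to SDHC at 93.5.

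The nuclear members changed about as often as other genes did. Of 92 tested, 9 passed the test, which is 9.78% against 11.4% of all genes tested. Of these, 5 rose (6.98% of all genes did) and 4 fell (4.42% of all genes did). An unadjusted p under 0.05 was reached by 23 of the 92, and by 23.5% of all genes. The libraries of the groups did not overlap in 21 nuclear members that were higher and 27 that were lower in dex, beside 24.5% and 28.8% of all genes, or 53.3% in either direction. The median fold change was -0.01 in the nuclear members and -0.00 in all genes. No tested member moved by more than 1 on the log2 scale, and 83 of the 92 lay within 0.5. The median SE of a nuclear member's fold change was 0.13, which limits what could be seen at this depth.

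**Figure D2:**
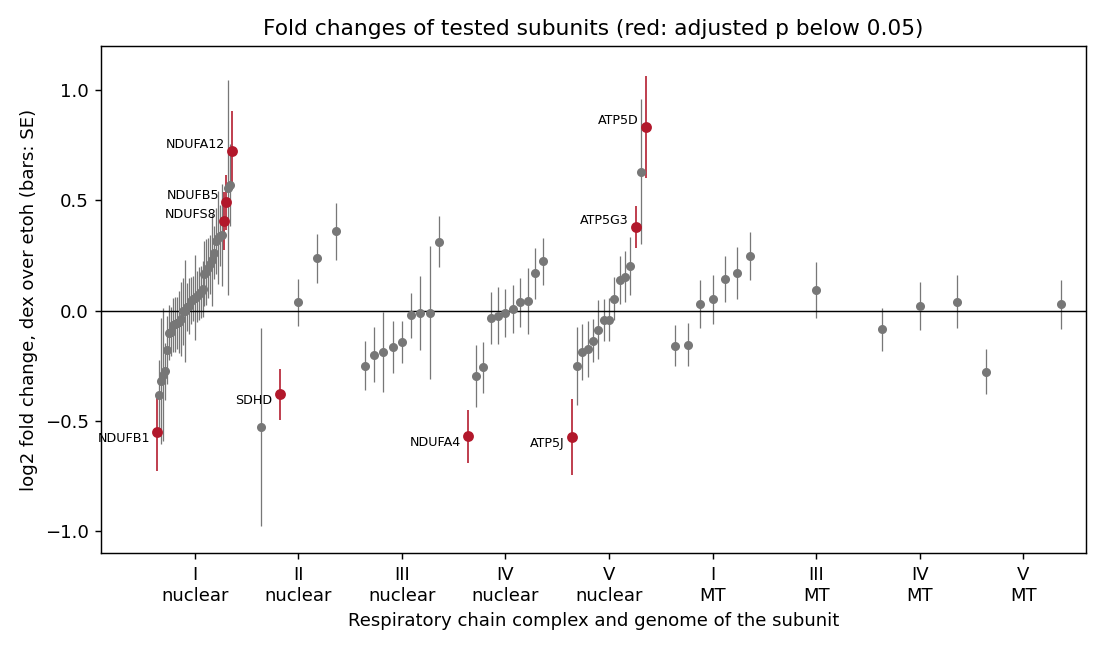
log2 fold change of dex over etoh for each tested subunit, with its SE, sorted within each complex and split into nuclear and mitochondrial (MT) genes. Red points, named, had an adjusted p below 0.05. They include rises and falls, from ATP5J at -0.57 to ATP5D at 0.83. The nuclear column of complex III and the MT columns hold none.

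Complex I had 4 of its 39 tested nuclear subunit identifiers change, or 10.3% against 11.4% of all genes, 3 higher and 1 lower. NDUFA7 and NDUFB8 were each counted under a further identifier. Positions are from GENCODE 29 on GRCh38. NDUFA12 (chr12:94897055-95003770, minus strand), an accessory subunit at the junction of the arms, had 211 and 155 RPM in dex and 77.9 and 146 RPM in etoh. The etoh libraries lay far apart, and dex replicate 2 was only just above etoh replicate 2. NDUFA12 rose by 0.72 (SE 0.18, adjusted p = 0.0089). Its fold change ranged from 0.36 to 1.24 with 1 library left out, and the call was lost without dex replicate 1 or without etoh replicate 1 (adjusted p up to 0.0898). NDUFB5 (chr3:179604690-179627647, plus strand), an accessory subunit of the membrane arm, had 218 and 205 RPM in dex and 124 and 180 RPM in etoh. Both dex libraries were above both etoh libraries. It rose by 0.49 (SE 0.12, adjusted p = 0.0103), and 0.26 was left without etoh replicate 1 (adjusted p = 0.301).

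NDUFS8 (chr11:68030617-68036644, plus strand), a core subunit that carries iron-sulfur clusters on the path to ubiquinone, had 82.3 and 62.4 RPM in dex and 50.1 and 60.3 RPM in etoh. The groups did not overlap, but the second libraries were nearly level. It rose by 0.41 (SE 0.13, adjusted p = 0.048), and the call was lost when libraries were scaled by their totals (adjusted p = 0.0573) or by upper quartiles (adjusted p = 0.0534). Without dex replicate 1 its fold change was 0.19 (adjusted p = 0.6), and without etoh replicate 1 it was 0.29 (adjusted p = 0.315). NDUFB1 (chr14:92116122-92121917, minus strand), a small subunit of the membrane arm, had 12.3 and 13.6 RPM in dex and 22.6 and 16.2 RPM in etoh. Etoh replicate 1 stood above the other libraries. It fell by 0.55 (SE 0.18, adjusted p = 0.0454), with -0.28 to -0.79 when 1 library was left out, and it passed only without etoh replicate 2.

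Further nuclear core subunits of complex I lie on the path from NADH to ubiquinone, and those named here did not pass. NDUFV1 and NDUFV2 hold the site of NADH oxidation, and NDUFS1, NDUFS3 and NDUFS7 belong to the arm in the matrix. NDUFV1 had 35.4 and 30.4 RPM in dex and 23.9 and 28.6 RPM in etoh, with a fold change of 0.34 and an adjusted p of 0.122. NDUFV2 stood at -0.05, NDUFS1 at 0.05, NDUFS3 at -0.05 and NDUFS7 at -0.29. NDUFS7 had only 27 and 32 reads in dex and 27 and 49 in etoh, and its SE was 0.30. NDUFS6, a zinc-binding accessory subunit, had 30.6 and 20.4 RPM in dex and 14.03 and 20.44 RPM in etoh. Dex replicate 2 and etoh replicate 2 were level, and with a fold change of 0.57 (SE 0.19) its adjusted p of 0.0518 just missed the threshold. The 8 assembly factors lay between -0.39 and 0.22. None passed with edgeR, DESeq2 or limma-voom, beside 11.4% of all genes with edgeR. An unadjusted p under 0.05 was reached by 1 of the 8, beside 23.5% of all genes.

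Complex II is also an enzyme of the citric acid cycle and has no mitochondrially encoded subunit. Of its 5 tested identifiers 1 passed, or 20%, beside 11.4% of all genes. Its flavoprotein SDHA had 93.5 and 82.9 RPM in dex and 69.7 and 81.7 RPM in etoh, a fold change of 0.24 (adjusted p = 0.207). The iron-sulfur subunit SDHB had 126 and 92.8 RPM in dex and 79.2 and 93.1 RPM in etoh, a fold change of 0.36 (adjusted p = 0.0776), and its groups overlapped. Of the membrane anchors, SDHC had 74.6 and 76.1 RPM in dex and 77.1 and 71.6 RPM in etoh, a fold change of 0.04. SDHD (chr11:112086773-112120013, plus strand), the other anchor and the only member of the complex to pass, had 50.3 and 54.2 RPM in dex and 74.5 and 63.4 RPM in etoh. Both dex libraries were below both etoh libraries. SDHD fell by 0.38 (SE 0.12, adjusted p = 0.0359). It was -0.25 without etoh replicate 1 (adjusted p = 0.449) and -0.33 without dex replicate 1 (adjusted p = 0.203), and with the replicate number as a block its adjusted p was 0.0641. SDHD overlaps TIMM8B on the other strand and AP002884.3 on its own strand, and the strand setting of the counts is not given, so their reads cannot be told apart where they overlap. AP002884.3 is a further identifier counted under the symbol SDHD, and it had at most 22 reads in a library. With the identifiers of a symbol joined, SDHD stood at -0.38 (adjusted p = 0.0321).

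Complex III had none of its 9 tested nuclear identifiers pass, beside 11.4% of all genes, and neither DESeq2 nor limma-voom called one. An unadjusted p under 0.05 was reached by 2 of the 9, beside 23.5% of all genes. The core proteins UQCRC1 and UQCRC2 stood on opposite sides. UQCRC1 had 203 and 159.4 RPM in dex and 137 and 159.1 RPM in etoh, a fold change of 0.31 (adjusted p = 0.0922). UQCRC2 had 95.1 and 83.7 RPM in dex and 114 and 101 RPM in etoh, a fold change of -0.25 (adjusted p = 0.172). The Rieske protein UQCRFS1 had 253 and 264 RPM in dex and 302 and 276 RPM in etoh, a fold change of -0.14 (adjusted p = 0.41). UQCRH, the hinge protein that binds cytochrome c1, had 55.5 and 43.3 RPM in dex and 57.5 and 57.4 RPM in etoh, a fold change of -0.20 (adjusted p = 0.355). In total 8 of the 9 fold changes were negative, with a median of -0.14, beside 7446 of the 14777 genes and a median of -0.00.

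Complex IV had 17 nuclear subunit identifiers, of which 11 could be tested and 1 passed, or 9.09% beside 11.4% of all genes. NDUFA4 (chr7:10931951-10940256, minus strand) was named as a complex I subunit and is now known as a subunit of complex IV. It had 83.9 and 107 RPM in dex and 155 and 132 RPM in etoh. Both dex libraries were clearly below both etoh libraries. NDUFA4 fell by 0.57 (SE 0.12, adjusted p = 0.0021), the smallest p among all members, and DESeq2 also called it (adjusted p = 0.00209). With 1 library left out it stood between -0.41 and -0.75, and the call was lost without dex replicate 1 (adjusted p = 0.053). Its paralog NDUFA4L2 had 1 and 5 reads in dex and 2 and 1 reads in etoh.

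Several subunits of complex IV come as a widely used gene and a copy known from muscle, testis or other tissues. In these cells the widely used genes held nearly all of the reads. COX4I1 had 83.6 and 80.3 RPM in dex and 72.3 and 69.9 RPM in etoh, a fold change of 0.22 (adjusted p = 0.209), while COX4I2 had 0 reads in every library. COX6A1 had 37.1 and 37.9 RPM in dex and 43.0 and 34.3 RPM in etoh, a fold change of -0.02, and COX6A2 had 0 reads. COX6B1 had 141 and 128 RPM in dex and 105 and 137 RPM in etoh, a fold change of 0.17, against 5 and 12 reads of COX6B2 in dex and 9 and 5 in etoh. COX7B had 59.0 and 66.3 RPM in dex and 93.2 and 63.1 RPM in etoh, a fold change of -0.30 (adjusted p = 0.208) that rested on etoh replicate 1, since it was 0.02 without that library. COX8A stood at 0.04. COX7B2 and COX8C had 0 reads.

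COX7A1, the muscle form, had 0 reads as well, and COX7A2 had 40.8 and 49.5 RPM in dex and 54.3 and 55.1 RPM in etoh. All dex libraries were below all etoh libraries, and the fold change was -0.26 (adjusted p = 0.183). COX7A2L, which joins complexes III and IV in supercomplexes, had 153 and 188 RPM in dex and 200.1 and 195.9 RPM in etoh, a fold change of -0.20 (adjusted p = 0.272). A count of 0 allows up to 3 reads, or 0.305 and 0.269 RPM in dex and 0.307 and 0.252 RPM in etoh, for counting error only. The nuclear genes of complex IV summed to 788 ± 8.48 RPM in dex and 842 ± 1.54 RPM in etoh (SD, n = 2 each), and these sums did not overlap. NDUFA4 alone held 95.7 ± 16.6 RPM of this in dex and 144 ± 16.4 RPM in etoh. Complex I, at 1776.5 and 1678.2 RPM in dex and 1454.5 and 1646.8 RPM in etoh, did not overlap either. Nor did complex V, at 2827 and 2667 RPM in dex and 2658 and 2643 RPM in etoh. Both were higher in dex, while complexes II and III overlapped. In complex V, ATP5G3 alone held 558 ± 36.3 RPM in dex and 434 ± 11.8 RPM in etoh. In complex I, NDUFA12 held 183 ± 39.4 RPM in dex and 112 ± 48.1 RPM in etoh. NDUFB5 held 211 ± 9.21 RPM in dex and 152 ± 39.2 RPM in etoh. Fold changes of tested identifiers were 24 positive and 15 negative in complex I, and 7 positive and 8 negative in complex V. None of the sums of complexes carries a test.

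Complex V had 3 of its 15 tested nuclear subunits change, 2 higher and 1 lower, beside 11.4% of all genes, 6.98% higher and 4.42% lower. ATP5D (chr19:1241746-1244826, plus strand), the delta subunit at the foot of the rotor's central stalk, had 7.83 and 7.002 RPM in dex and 4.40 and 4.04 RPM in etoh. The groups were well apart, but on few reads, 77 and 78 in dex and 43 and 48 in etoh. ATP5D rose by 0.83 (SE 0.23, adjusted p = 0.0207), and the call was lost without dex replicate 1 (adjusted p = 0.134) or without etoh replicate 2 (adjusted p = 0.091). ATP5J (chr21:25716503-25735673, minus strand), known as coupling factor 6 in the peripheral stalk, had 19.9 and 32.0 RPM in dex and 45.3 and 33.5 RPM in etoh. The second libraries were nearly level. ATP5J fell by 0.57 (SE 0.17, adjusted p = 0.0338), and without dex replicate 1 it was -0.28 (adjusted p = 0.431), without etoh replicate 1 -0.33 (adjusted p = 0.324). It overlaps JAM2 and GABPA on the other strand. GABPA, an ETS factor known to act on respiratory chain genes, had 39.5 and 44.3 RPM in dex and 53.9 and 46.3 RPM in etoh, a fold change of -0.24 (adjusted p = 0.248).

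Subunit c, which forms the ring that turns with the proton flow, is encoded by ATP5G1, ATP5G2 and ATP5G3, whose mature proteins are identical. ATP5G3 (chr2:175176258-175184607, minus strand) was by far the most abundant, with 583 and 532 RPM in dex and 426 and 443 RPM in etoh. Both dex libraries were above both etoh libraries. ATP5G3 rose by 0.38 (SE 0.10, adjusted p = 0.0107). The call was lost without etoh replicate 1, where the fold change was 0.37 (adjusted p = 0.0595), and without dex replicate 1, where it was 0.31 (adjusted p = 0.131). ATP5G1 had 32.6 and 31.0 RPM in dex and 33.4 and 39.7 RPM in etoh, a fold change of -0.19 (adjusted p = 0.406). ATP5G2 had 32.0 and 28.5 RPM in dex and 27.0 and 26.2 RPM in etoh, a fold change of 0.20 (adjusted p = 0.39). Per length, the 3 genes stood at 481, 61.3 and 32.0 in dex and 377, 70.2 and 29.2 in etoh for ATP5G3, ATP5G1 and ATP5G2.

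The remaining subunits of the ATP synthase did not pass. ATP5B had 1172 and 1064 RPM in dex and 1083 and 1100 RPM in etoh, a fold change of 0.05. ATP5A1, its partner in the catalytic head, had 421 and 419 RPM in dex and 463 and 413 RPM in etoh, a fold change of -0.04. ATP5I, a small membrane subunit at the contact between paired synthases, had the highest fold change after ATP5D and NDUFA12, at 0.63, but on 25 and 42 reads in dex and 20 and 25 in etoh (adjusted p = 0.256). The other members not tested were ATP5L2, with 5 and 8 reads in dex and 9 and 10 in etoh, and the antisense gene NDUFB2-AS1, with 1 and 3 reads in dex and 2 and 5 in etoh.

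**Figure D3:**
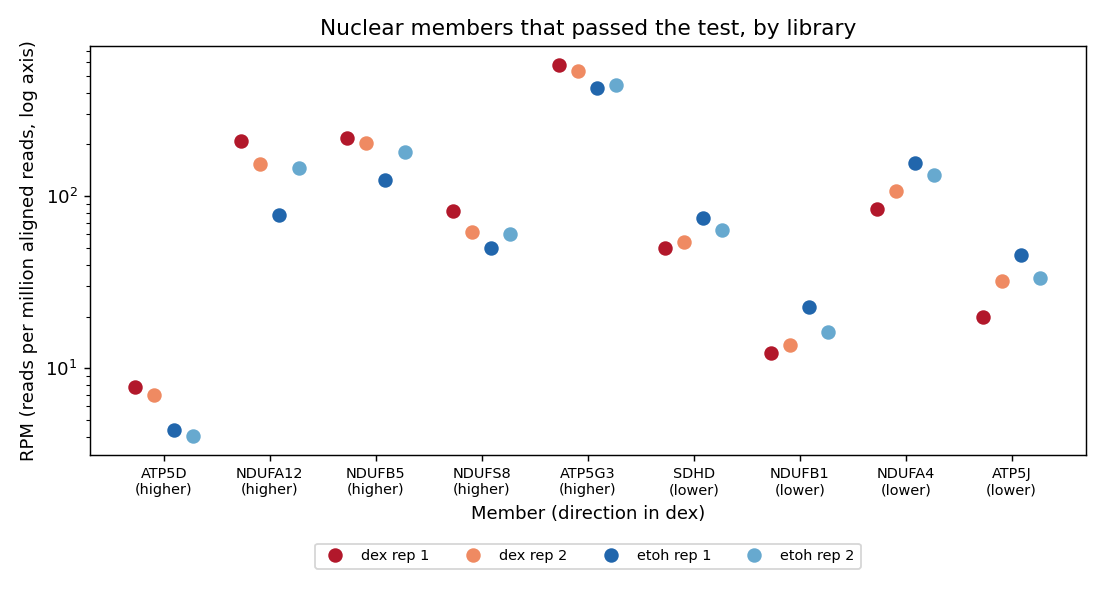
RPM (log axis) of the 9 nuclear members that passed the test, in each library, with dex replicates 1 and 2 in red and etoh replicates 1 and 2 in blue. The groups do not overlap in any of them, but dex replicate 2 and etoh replicate 2 lie close together for NDUFA12, NDUFS8 and ATP5J.

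Most of these calls rested on the first replicates. In 8 of the 9 members that passed, dex replicate 1 and etoh replicate 1 were the outermost libraries, as they were in 44.6% of all 1684 genes called. None of the 9 passed in all of the 4 fits that leave out 1 library. Without dex replicate 1, NDUFB5 alone still passed, at 7.24% of all genes, and without etoh replicate 1, ATP5D and NDUFA4 did, at 7.57% of all genes. DESeq2 called 3 of the 9, namely ATP5G3, NDUFB5 and NDUFA4, and 7.18% of all genes. Fold changes went with base composition: over 13849 genes Spearman's rho between fold change and GC content was 0.33, and over 89 nuclear members it was 0.29, given as descriptions since genes share their libraries. The difference between the dex replicates had a rho of 0.29 with GC and that between the etoh replicates -0.30. With an offset for GC in each library, chosen after the data were seen, 6 of the 9 and 11.1% of all genes passed. NDUFS8 (63.3% GC) did not, at a fold change of 0.22 (adjusted p = 0.254), nor did ATP5D (69.6% GC) at 0.58 (adjusted p = 0.127) or SDHD (41.0% GC) at -0.29 (adjusted p = 0.0734).

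**Figure D4:**
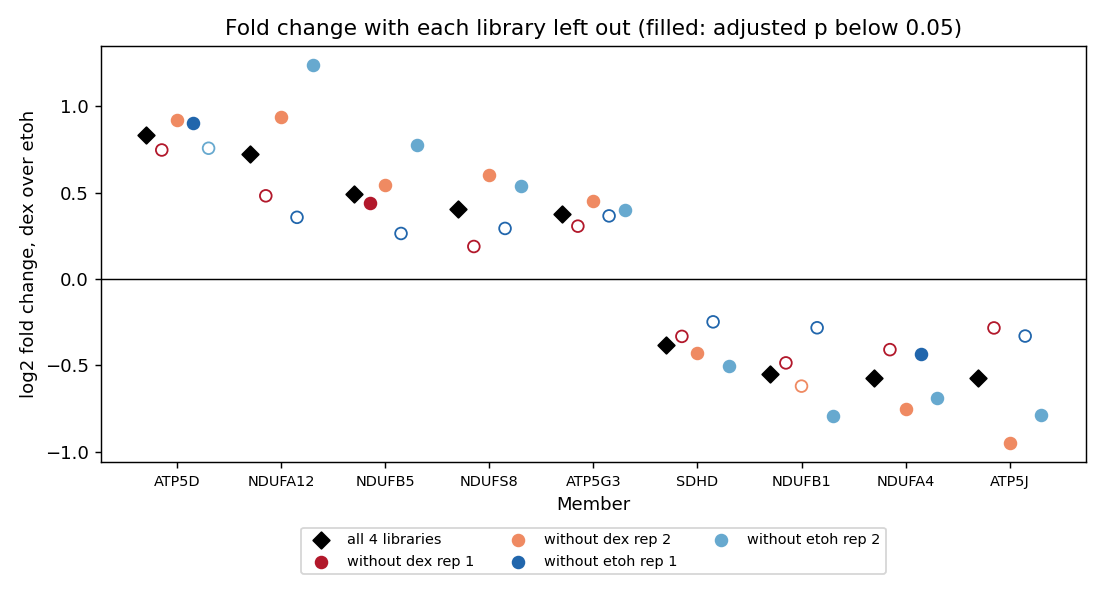
log2 fold change of dex over etoh for the 9 members, with all 4 libraries (black diamonds) and with each library left out (circles). Filled symbols had an adjusted p below 0.05. Every value keeps its sign, and every member has at least 1 open circle. NDUFA12 spreads most, from 0.36 to 1.24.

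Of 481 transcripts of members, 386 were tested and 14 passed, which is 3.63% against 5.64% of all transcripts tested. All 14 belonged to genes that had passed as a whole: 4 each of NDUFB5 and NDUFA12, 3 of ATP5G3 and 1 each of NDUFA4, SDHD and ATP5J. The 3 transcripts of ATP5G3 had 1987, 1914 and 1832 reads in dex replicate 1 and fold changes of 0.39, 0.38 and 0.35. How reads that fit several transcripts were assigned is not given, so these may not be separate measurements. When each gene was tested on its transcript with the most reads, 9.36% of all genes and 6 of 89 nuclear members passed, 5 of them among the 9, namely NDUFA12, NDUFB5, SDHD, NDUFA4 and ATP5G3. The calls for NDUFB1 (adjusted p = 0.355), NDUFS8 (adjusted p = 0.121), ATP5D (adjusted p = 0.0747) and ATP5J (adjusted p = 0.531) were lost, and the fold change of ATP5J was -0.33.

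The promoters of 5 of the 9 changed members were available, NDUFA12, NDUFS8, NDUFB1, SDHD and ATP5J, as 250 bases before to 50 after the start (RefSeq, GRCh38.p14). Of these, 3 are shown because they hold motifs of factors known to regulate respiratory chain genes, or part of the glucocorticoid receptor's motif. Capitals mark matches to NRF1 (GCGC, any 2 bases, GCGC), ETS factors (CCGGAAGT, here on the other strand), YY1 (AAGATGGCG) and the glucocorticoid receptor's short motif (AGAACA), each searched on both strands. The first is its own reverse complement, and the short motif forms part of some full receptor motifs.
SDHD, chr11:112086623-112086922, plus strand: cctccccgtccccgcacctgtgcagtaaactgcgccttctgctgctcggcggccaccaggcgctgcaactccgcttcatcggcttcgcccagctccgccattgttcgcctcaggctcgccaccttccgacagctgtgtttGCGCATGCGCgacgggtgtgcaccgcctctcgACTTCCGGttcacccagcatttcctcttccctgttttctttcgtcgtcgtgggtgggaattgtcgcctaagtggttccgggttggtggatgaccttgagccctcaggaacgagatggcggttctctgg
NDUFA12, chr12:95003648-95003947, minus strand: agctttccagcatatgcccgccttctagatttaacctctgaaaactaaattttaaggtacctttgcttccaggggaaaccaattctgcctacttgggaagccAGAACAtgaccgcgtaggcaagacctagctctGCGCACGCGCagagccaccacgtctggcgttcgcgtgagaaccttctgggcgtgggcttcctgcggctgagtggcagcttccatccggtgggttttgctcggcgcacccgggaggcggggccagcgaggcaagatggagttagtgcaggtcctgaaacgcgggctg
ATP5J, chr21:25735005-25735304, minus strand: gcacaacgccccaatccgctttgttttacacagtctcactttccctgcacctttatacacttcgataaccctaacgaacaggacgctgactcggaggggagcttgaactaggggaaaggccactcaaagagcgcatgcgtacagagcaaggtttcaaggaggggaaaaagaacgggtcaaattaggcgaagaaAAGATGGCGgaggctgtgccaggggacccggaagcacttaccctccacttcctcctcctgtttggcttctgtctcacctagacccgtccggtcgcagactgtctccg

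Promoters were found for 81 nuclear identifiers and came to 77 distinct ones. The NRF1 motif was in 24.7% of them, against 8.27% of all 34943 promoters, the ETS motif in 11.7% against 4.11%, and the YY1 motif in 11.7% against 1.75%. The short receptor motif was in 10.4%, against 14.8% of all promoters. The full receptor motif (GNACA, any 3 bases, TGTNC) was in 1 member promoter, that of the untested NDUFB2-AS1, and in 0.389% of all promoters. Of the tested members with a promoter, 2 of the 17 with an NRF1 motif passed and 3 of the 55 without. For the ETS motif these were 1 of 9 with it and 4 of 63 without, and the same for the YY1 motif. With the short receptor motif 1 of 8 passed and without it 4 of 64. These counts carry no test. A match is only a run of letters in this window.

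The 13 mitochondrial genes code for 7 subunits of complex I, 1 of complex III, 3 of complex IV and 2 of complex V, and all but MT-ND6 are read from the heavy strand. None passed the test with edgeR, DESeq2 or limma-voom, against 11.4% of all genes with edgeR. At an unadjusted p under 0.05 there were 2 of the 13, MT-ND6 and MT-ATP8, beside 23.5% of all genes. The libraries of the groups did not overlap in 4 of the 13, all lower in dex. Among all genes 28.8% were lower and 24.5% higher in dex without overlap. The fold changes of the 13 genes lay between -0.28 and 0.25, with SEs from 0.09 to 0.13. MT-ND6, with the fewest reads over the 4 libraries, had 4299 and 4008 reads in dex and 3027 and 4403 in etoh.

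MT-ND6, the only member on the light strand, had 437 and 360 RPM in dex and 310 and 370 RPM in etoh. Dex replicate 1 was high and etoh replicate 1 low, and the second replicates were level. The fold change was 0.25 (SE 0.11, adjusted p = 0.17). Without etoh replicate 2 it was 0.37 and passed (adjusted p = 0.0379), and without dex replicate 2 it was 0.39 and passed (adjusted p = 0.0286). The heavy-strand genes of complex I spread around 0. MT-ND1 had 3644 and 3014 RPM in dex and 2642 and 3363 RPM in etoh, a fold change of 0.17 (adjusted p = 0.426). MT-ND5 had 1862 and 1617 RPM in dex and 1510 and 1684 RPM in etoh, at 0.14. MT-ND2 had 3764 and 3107 RPM in dex and 3180 and 3542 RPM in etoh, at 0.05. MT-ND4 had 7445 and 6466 RPM in dex and 6593 and 7223 RPM in etoh, at 0.03. In each of these genes the groups overlapped.

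The short genes MT-ND3 and MT-ND4L lay on the other side. MT-ND3 had 450.0 and 423 RPM in dex and 470.2 and 514 RPM in etoh, a fold change of -0.15 (adjusted p = 0.359). MT-ND4L had 547 and 539 RPM in dex and 606 and 622 RPM in etoh, a fold change of -0.16 (adjusted p = 0.328). In both, the dex libraries were below the etoh libraries, as in 28.8% of all genes.

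Cytochrome b, MT-CYB, the mitochondrial subunit of complex III, had 2557 and 2175 RPM in dex and 1861 and 2644 RPM in etoh, and its fold change of 0.09 (adjusted p = 0.725) was far inside the spread of the etoh libraries. Without etoh replicate 2 it was 0.36 and passed (adjusted p = 0.0415). Of the core subunits of complex IV, the groups overlapped in MT-CO1 and MT-CO2 but not in MT-CO3. MT-CO1 had 18154 and 16708 RPM in dex and 15098 and 19260 RPM in etoh, a fold change of 0.04. MT-CO2 had 5268 and 4478 RPM in dex and 4646 and 5077 RPM in etoh, a fold change of 0.02. MT-CO3 had 2737 and 2796 RPM in dex and 2840 and 3104 RPM in etoh, a fold change of -0.09 (adjusted p = 0.662). Its dex libraries were below its etoh libraries, as in 28.8% of all genes.

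The proton channel subunit MT-ATP6 and its small partner MT-ATP8 are read from 1 RNA with overlapping reading frames. MT-ATP6 had 4095 and 3274 RPM in dex and 3634 and 3686 RPM in etoh, a fold change of 0.03 (adjusted p = 0.913). MT-ATP8 had 359 and 356 RPM in dex and 474 and 404 RPM in etoh. Both dex libraries were below both etoh libraries, and the fold change was -0.28 (SE 0.10, adjusted p = 0.0848). Without etoh replicate 2 it was -0.40 and passed (adjusted p = 0.0182). The genes share 46 bases, 22.2% of MT-ATP8, so part of the reads of either can be counted for the other. The shared stretch is printed with the start codon of MT-ATP6 and the stop codon of MT-ATP8 in capitals (GRCh38, plus strand).
chrMT:8527-8572: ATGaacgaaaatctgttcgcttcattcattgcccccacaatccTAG

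**Figure D5:**
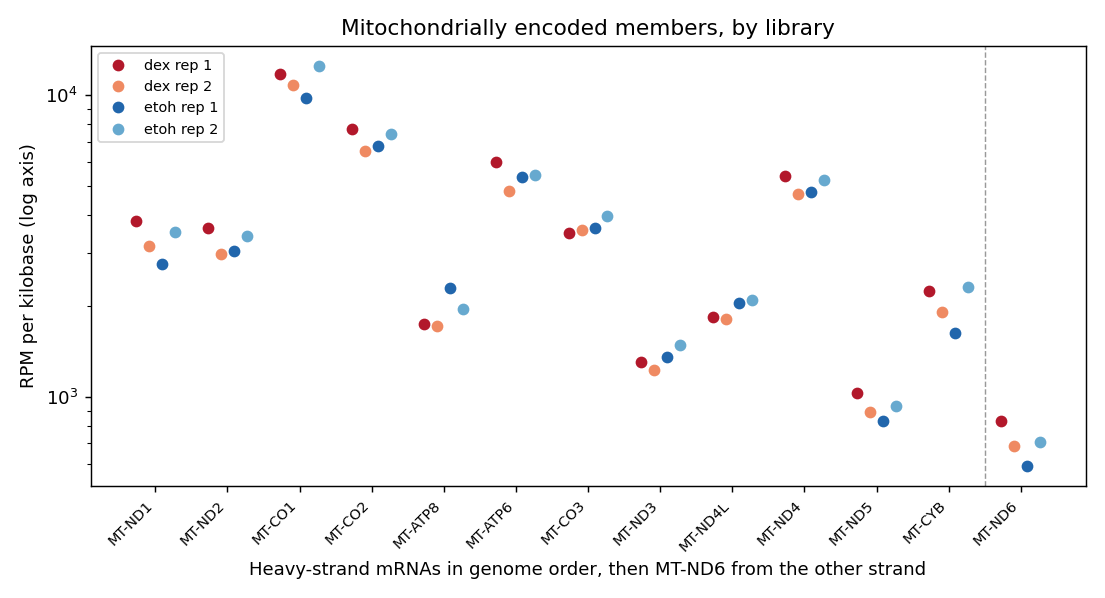
Levels per length of the 13 mitochondrial genes in each library, in RPM per kilobase on a log axis, with heavy-strand genes in genome order and MT-ND6 last. Dex replicates are red and etoh replicates blue. In every library MT-CO1 is highest (mean 11304 in dex and 11141 in etoh) and MT-ND6 lowest (mean 759 in dex and 648 in etoh).

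Per length the mitochondrial genes spanned a wide range although most share 1 primary transcript. After MT-CO1 came MT-CO2 at 7124 in dex and 7108 in etoh, MT-ATP6 at 5410 in dex and 5374 in etoh, and MT-ND4 at 5048 in dex and 5013 in etoh. The libraries of MT-ATP6 and MT-ND4 overlapped in dex and not in etoh. MT-ND1 and MT-ND2, at 3482 and 3297 in dex and 3140 and 3226 in etoh, overlapped in both groups. MT-ATP8, of 207 bases, stood at 1729 in dex and 2120 in etoh, well under MT-ATP6 of the same RNA. Levels per length of genes this short can therefore not be set directly against those of longer genes. MT-ND4L, of 297 bases, stood at 1828 in dex and 2066 in etoh, also under MT-ND4, with which it shares 7 bases. Dex replicate 1 was the highest library for 7 of the 13 genes and etoh replicate 2 for 5, while dex replicate 2 was the lowest for 7 and etoh replicate 1 for 5.

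A list of 7 genes not caught by the symbol rule held electron carriers and subunits. It also held the assembly factors UQCC1 and UQCC2 and the ATP synthase inhibitor ATPIF1. Of these 7, 2 changed, 1 subunit and 1 assembly factor, beside 11.4% of all genes. USMG5, a small ATP synthase subunit, had 34.1 and 34.2 RPM in dex and 48.6 and 47.1 RPM in etoh, and fell by 0.47 (SE 0.12, adjusted p = 0.00896), with the call lost without etoh replicate 1 (adjusted p = 0.0688). UQCC2, which helps to assemble complex III, had 19.2 and 10.3 RPM in dex and 6.35 and 9.93 RPM in etoh, and rose by 0.85 (SE 0.25, adjusted p = 0.0259), with 0.34 left without dex replicate 1 (adjusted p = 0.583) and the call also lost without etoh replicate 1 (adjusted p = 0.0898). The carrier cytochrome c, CYCS, had 376 and 380 RPM in dex and 401 and 383 RPM in etoh, a fold change of -0.03.

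Another list held 33 tested assembly factors outside the rule. It did not hold UQCC1 and UQCC2, of which UQCC2 rose as given above. Of these 33, 2 fell, or 6.06%, and none rose, beside 4.42% of all genes that fell and 6.98% that rose. TMEM126B, needed to build the membrane arm of complex I, had 21.7 and 19.9 RPM in dex and 30.1 and 32.8 RPM in etoh, and fell by 0.58 (SE 0.13, adjusted p = 0.00529), a call that held with each library left out. COA6, which helps to bring copper to complex IV, had 26.2 and 35.9 RPM in dex and 47.5 and 45.1 RPM in etoh, and fell by 0.55 (SE 0.13, adjusted p = 0.00796). Without dex replicate 1 it was -0.35 (adjusted p = 0.183). Of the 14 citric acid cycle genes none passed with edgeR, DESeq2 or limma-voom, beside 11.4% of all genes with edgeR. An unadjusted p under 0.05 was reached by 1 of the 14, beside 23.5% of all genes.

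The regulators of mitochondrial biogenesis held the largest fold change of these lists, with 4 of 17 genes passing, 2 in each direction, beside 11.4% of all genes. PPARGC1B, or PGC-1 beta, a coactivator of genes for oxidative metabolism, had 37.0 and 34.9 RPM in dex and 13.1 and 14.5 RPM in etoh. The groups were far apart, and it rose by 1.40 (SE 0.14, adjusted p = 1.84e-07). Its relative PPARGC1A was low, with 51 and 52 reads in dex and 83 and 74 in etoh, a fold change of -0.55 (adjusted p = 0.154). NRIP1, a corepressor of nuclear receptors known to restrain oxidative genes, had 112 and 115 RPM in dex and 184 and 169 RPM in etoh, and fell by 0.62 (SE 0.10, adjusted p = 0.000138). The calls for PPARGC1B and NRIP1 held with each library left out. SIRT1, a deacetylase that acts on PGC-1 alpha, fell by 0.47 (SE 0.12, adjusted p = 0.0129), with 40.4 and 45.5 RPM in dex and 65.5 and 54.8 RPM in etoh, but not without dex replicate 1 or etoh replicate 1 (adjusted p up to 0.252). PPARA, a nuclear receptor for fatty acids, had 10.7 and 11.0 RPM in dex and 7.58 and 6.65 RPM in etoh, and rose by 0.63 (SE 0.19, adjusted p = 0.0367). It passed without etoh replicate 1 and in no other fit that left out 1 library (adjusted p from 0.0966 to 0.181). NRF1 itself had 24.8 and 22.0 RPM in dex and 20.4 and 25.6 RPM in etoh, a fold change of 0.04.

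Of 28 tested genes that maintain and express mitochondrial DNA, 1 passed, beside 11.4% of all genes. The median fold change was -0.08 with 21 below 0, against -0.00 and 7446 of 14777 in all genes. The gene that passed was MTERF, a factor of mitochondrial transcription termination. It had 13.02 and 16.2 RPM in dex and 18.8 and 22.8 RPM in etoh and fell by 0.49 (SE 0.16, adjusted p = 0.0484), a call not made by DESeq2 or limma-voom and lost without dex replicate 1 (adjusted p = 0.371) or etoh replicate 2 (adjusted p = 0.283). TFAM, which packages mitochondrial DNA and starts its transcription, had 186 and 194 RPM in dex and 244 and 209 RPM in etoh, a fold change of -0.24 (adjusted p = 0.161).

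Ribosomal proteins gave a comparison with other large complexes. Of 77 proteins of the mitochondrial ribosome, 2 rose, or 2.60%: MRPS23 by 0.48 (SE 0.10), with 233 and 251 RPM in dex and 176 and 175 RPM in etoh, and MRPL16 by 0.42 (SE 0.13), with 47.7 and 39.3 RPM in dex and 32.6 and 33.2 RPM in etoh. MRPL16 passed without dex replicate 2 and in no other fit that left out 1 library (adjusted p up to 0.404). Of 88 proteins of the cytosolic ribosome, 17 passed, or 19.3%, 7 higher and 10 lower, beside 11.4% of all genes for both lists, among them RPL19 at 0.66 and RPL27 at -0.50. The shares of these lists and of the respiratory chain were not tested against each other.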

How the data were processed

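Each deposited file gives raw counts of 1 library: transcript, transcript length, aligned and unaligned reads. Tools named in the submitters' processing notes are CASAVA, Bowtie, SAMtools and DESeq2, without versions or roles. Genome build, annotation release, aligner settings and strandedness were, like the versions, not given in the sources used here. Unaligned reads, the row with no transcript name, made up 17.2% and 18.7% of reads in dex and 18.5% and 17.2% in etoh and stayed out of library sizes and tests.

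Counts of all transcripts of a gene identifier were summed, so the gene test differs from one on the most abundant transcript, which is given as an alternative. Genes were kept by filterByExpr (minimum count 10), scaled by TMM on aligned totals and tested with edgeR 4.0.16 in R 4.3.3 (quasi-likelihood test, two-sided, Benjamini-Hochberg over all 14777 genes, prior count 0.125). The SE is the absolute fold change over the square root of the F statistic, and the biological coefficient of variation came to 8.08%. Transcripts were tested likewise. The code was tested on simulated data. Depth was 9764159 to 11887526 aligned reads, and with no molecular identifiers the floor of 3 reads covers counting error only. Positions and overlaps came from GENCODE 29 on GRCh38, and 62 of the 114 members overlap another counted gene.

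The genes named were all mitochondrial members, every nuclear member that passed, the 10 smallest p-values, the 3 highest and lowest fold changes with at least 2 RPM on average, the top gene per length of each complex, the listed paralog groups, up to 3 passing genes of each other list, and 3 treatment checks. Named after their values were seen were NDUFV1, NDUFV2, NDUFS1, NDUFS3, NDUFS7, UQCRC1, UQCRC2, ATP5A1, GABPA, NRF1, TFAM, CYCS, PPARGC1A, PPARA, ATP5L2 and NDUFB2-AS1. The members and lists were chosen with earlier results of these data known. The symbols COA7, SDHAF3, SDHAF4 and UQCRHL did not occur among the genes counted, so they have no values here. Values of some single genes are not reported here.

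The alternatives were other scalings and filters, DESeq2 1.42.0, limma-voom (limma 3.58.1), a block for the replicate number, a threshold of 0.01, the transcript with the most reads, removal of mitochondrial genes and removal of each library. Crossed pairs, the GC offset and joined identifiers of a symbol were added after the data were seen. The labels name no batch.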

Additional observations from a re-analysis of the deposited data

How the results depend on the processing

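With all 4 libraries edgeR called 1684 genes, 9 nuclear members, 0 mitochondrial members and 2811 transcripts. With 1 library left out these counts ranged from 1070 to 1842 genes, 1 to 14 nuclear members, 0 to 3 mitochondrial members and 1865 to 3478 transcripts. In these fits the lone library took the spread of the group with 2. The lowest counts of genes and nuclear members came without dex replicate 1 and without etoh replicate 1. DESeq2 called 1040 genes and 3 nuclear members, and an adjusted p of 0.01 left 995 genes and 2 nuclear members. With no count filter 1 mitochondrial member passed, MT-ATP8. Deviations of libraries with the same replicate number had a correlation of -0.28 over 9290 genes. Pairing by number cannot be judged from this value, since the replicate differences went with GC in opposite directions (rho of 0.29 in dex and -0.30 in etoh). With the replicate block 1558 genes, 9 nuclear members (8 of them shared with the fit without it) and 0 mitochondrial members passed. A crossed pairing, chosen after the data were seen, called 2710 genes, 16 nuclear and 2 mitochondrial members. The other scalings moved the median fold change of all genes by at most 0.02 and the nuclear count to 8 or 9. Among named genes, COX8A turned to -0.082 with the GC offset. With 1 library left out, fold changes crossed 0 in genes that had not passed: from -0.024 to 0.13 in ATP5B, -0.19 to 0.16 in COX6A1, -0.56 to 0.023 in COX7B, -0.17 to 0.22 in COX8A, -0.025 to 0.11 in SDHC, -0.15 to 0.19 in MT-ATP6, -0.11 to 0.22 in MT-CO1, -0.11 to 0.14 in MT-CO2, -0.13 to 0.36 in MT-CYB, -0.10 to 0.19 in MT-ND2 and -0.082 to 0.14 in MT-ND4. The causes were not tested. Over 57 named genes and 954 values from alternatives, 856 kept direction and side of the threshold, 61 lost the call, 20 gained it and 17 changed sign.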
